A study of Bos indicus x Bos taurus with 78 samples.

Results

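The miRNAs bta-miR-22-3p, bta-miR-22-5p, bta-miR-26a and bta-miR-26b, named below without their bovine prefix, were measured in loin muscle of 78 steers. They were chosen by name as the rows of the count table for the mature products of miR-22 and the 2 expressed miR-26 miRNAs. They make up 4 of 1030 miRNA rows, 741 of them with 1 count or more and 272 past the low-count filter, and all 4 passed it. The remaining row of the family, miR-26c, had 0 counts in all 78 libraries.

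Small RNA was sequenced from frozen Longissimus lumborum biopsies of male Bos indicus x Bos taurus cattle to look for miRNAs that differ with the dark-cutting phenotype, in which beef is dark and its muscle is known to hold little glycogen. Of these animals 25 were labelled dark-cutting, with 8 at degree 1/4, 9 at 1/3, 3 at 1/2, 4 at 2/3 and a lone steer at 3/4, and 53 were labelled normal. No treatment, age or genetic alteration is given for either group, and each library comes from a separate animal. Total counts per library ran from 1427817 to 4535675 (median 3209320).

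Both arms of miR-22 are cut from the same hairpin, in human from the transcript of MIR22HG, and the 3p arm is the one that is mainly retained in muscle and heart. In mouse, miR-22 acts in cardiac growth and in myoblast differentiation. miR-26a and miR-26b come from separate genes, in human within introns of the CTDSP phosphatase genes, and share their seed, the stretch that pairs with target mRNAs. In mouse, miR-26a promotes the differentiation of myoblasts by lowering Ezh2, a histone methyltransferase that holds muscle genes silent. Because the mature miR-26a and miR-26b are so alike, reads of one could have been counted in the row of the other.

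All 4 miRNAs were detected in every library, and they spanned a wide range of abundance. Counts per library ran from 15087 to 73740 for miR-22-3p, from 477 to 2025 for miR-22-5p, from 16234 to 69197 for miR-26a and from 2474 to 11663 for miR-26b. The order by mean share of counts was miR-22-3p (1.07%, place 4 of all rows), miR-26a (1.04%, place 5), miR-26b (0.193%, place 20) and miR-22-5p (0.0357%, place 44). The neighbours miR-22-3p and miR-26a did not differ beyond their spread, since each had places from 3 to 8 in single steers. The gap from these to miR-26b and from miR-26b to miR-22-5p held in every steer, where miR-26b had places from 17 to 26 and miR-22-5p from 36 to 60. Together the 4 held 2.33% ± 0.574 (SD, n = 78) of all counts. Of the counts left after miR-1, the muscle miRNA that dominates these libraries, they held 14.6% ± 1.65 (SD, n = 78), with 11.1% in the lowest and 18.6% in the highest steer.

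Levels below are log2 CPM (counts scaled to library size) with TMM factors, which set each library relative to the bulk of its miRNAs. On this scale the miR-26 pair was among the steadiest miRNAs of the muscle, while miR-22-3p was not. The SD of log2 CPM over the 53 normal steers was 0.189 for miR-26a, rank 6 of 272 from the lowest, and 0.220 for miR-26b, rank 12. It was 0.254 for miR-22-5p, rank 33, and 0.358 for miR-22-3p, rank 93, against a median of 0.463 over the 272 miRNAs. Low counts widen the spread of rare miRNAs, so abundant ones are the closer comparison. Among the 50 most abundant miRNAs the median SD was 0.268, and there miR-26a ranked 4 and miR-26b 8 from the lowest, but miR-22-3p ranked 42. The biological coefficient of variation fitted by edgeR gave a like order, at 14.7% for miR-26a, 15.7% for miR-26b, 18.2% for miR-22-5p and 24.03% for miR-22-3p (median 28.3%). With scaling by total count alone SDs were 0.361 for miR-26a (rank 38 of 272) and 0.424 for miR-26b (rank 78). Those of the miR-22 arms were 0.319 for miR-22-5p (rank 19) and 0.463 for miR-22-3p (rank 100). Among the 50 most abundant miRNAs the median SD was then 0.372, and miR-22-5p ranked 13, miR-26a 23, miR-26b 38 and miR-22-3p 42. The miR-26 pair was thus among the steadiest abundant miRNAs with TMM scaling but not with scaling by total count.

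**Figure D1:**
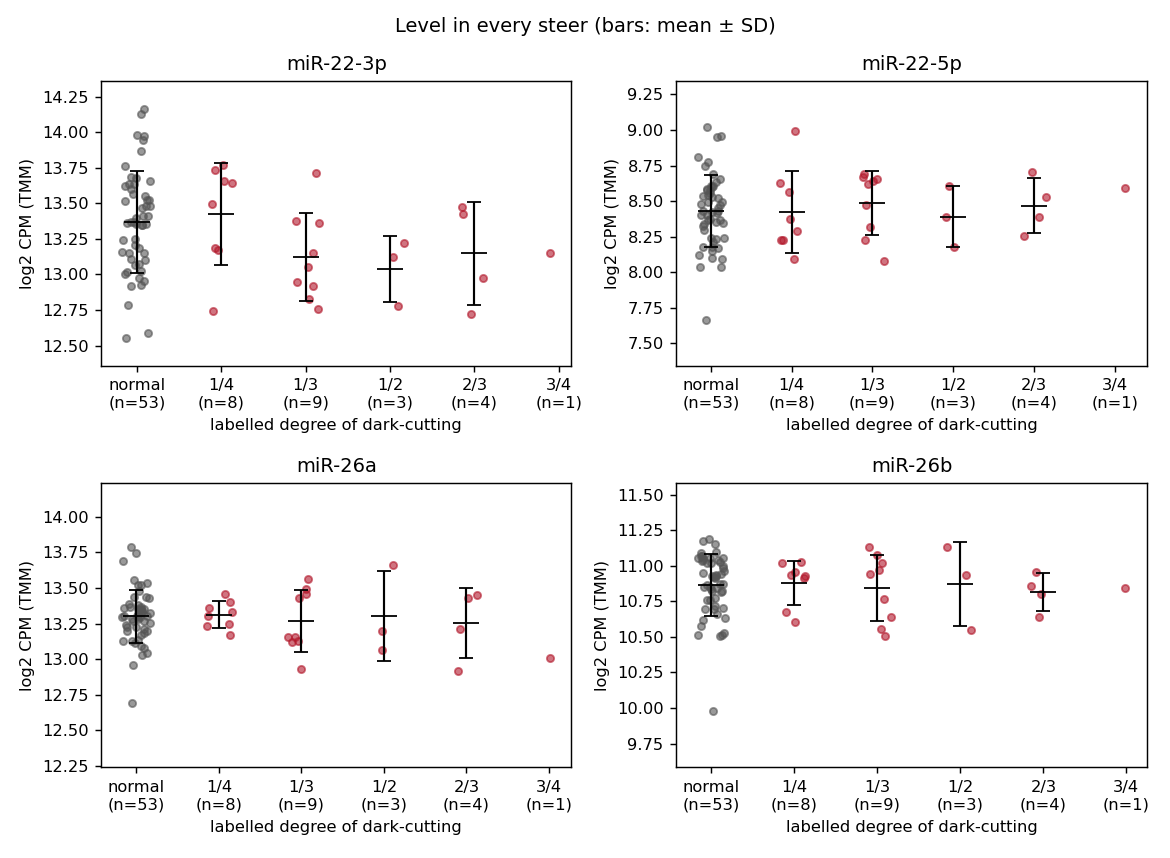
Log2 CPM (TMM) of each miRNA in each of the 78 steers by labelled degree of dark-cutting, with normal steers at the left; points are steers and bars are the mean ± SD, and the vertical axes start above 0. Every dark-cutting steer lies within the range of the normal steers for all 4 miRNAs, and miR-22-3p has lower means at 1/3 (13.12), 1/2 (13.04) and 2/3 (13.15) than in normal steers (13.37).

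Between dark-cutting and normal steers none of the 4 miRNAs differed beyond the spread between animals. The values of miR-22-3p had a minimum of 12.72, a median of 13.17 and a maximum of 13.77 log2 CPM in the 25 dark-cutting steers, against 12.55, 13.37 and 14.17 in the 53 normal steers. The groups overlapped throughout, but 16 of 25 dark-cutting steers lay below the normal median. Its log2 fold change was -0.16 ± 0.08 (SE), or 0.896-fold with a 95% interval of 0.801 to 1.003, and it did not pass edgeR's quasi-likelihood test (p = 0.0561, Benjamini-Hochberg adjusted p = 0.416). By p it ranked 27 of the 252 miRNAs tested. With scaling by total count alone the log2 fold change was -0.06 ± 0.10 (SE; adjusted p = 0.762 by edgeR). In bulk biopsies, fewer cells of a type and less RNA per cell cannot be told apart.

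For its partner arm miR-22-5p the minimum, median and maximum were 8.08, 8.47 and 8.99 log2 CPM in dark-cutting steers and 7.67, 8.43 and 9.02 in normal steers. The log2 fold change was 0.02 ± 0.06 (SE; 95% interval -0.10 to 0.15; adjusted p = 0.916 by edgeR), with 13 of 25 dark-cutting steers above the normal median. So the 2 arms of the hairpin had point estimates of opposite sign, each with an interval that holds 0.

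For miR-26a the values were 12.92, 13.25 and 13.66 log2 CPM in dark-cutting steers and 12.69, 13.30 and 13.79 in normal steers. Its fold change had a 95% interval of 0.918 to 1.05 (adjusted p = 0.908 by edgeR), and 12 of 25 dark-cutting steers were above the normal median. For miR-26b they were 10.51, 10.93 and 11.13 log2 CPM in dark-cutting steers and 9.98, 10.91 and 11.19 in normal steers. Its fold change had a 95% interval of 0.926 to 1.06 (adjusted p = 0.954 by edgeR), with 13 of 25 above the normal median. The intervals of both miR-26 miRNAs were narrower than that of miR-22-3p.

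Of the 252 miRNAs tested, 0% were called by edgeR, so the absence of a call among the 4 is the same as the background. Before adjustment, 23 miRNAs by edgeR, 23 by DESeq2 and 28 by limma-voom had a p under 0.05, each with 0 calls after it. The median log2 fold change of all 252 was -0.0091. In the authors' deposited table, miR-22-3p has a log2 fold change of -0.15 ± 0.08 (SE; adjusted p = 0.605). The authors' deposited table gives adjusted p-values of 0.992 for miR-22-5p, 0.992 for miR-26a and 0.993 for miR-26b.

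The steers also fall into animal numbers below 600 (8 dark-cutting, 18 normal) and at or above 600 (17 dark-cutting, 35 normal), a split that the labels do not call a batch. The log2 fold change of miR-22-3p was -0.06 ± 0.14 (SE) in the lower range and -0.18 ± 0.10 (SE) in the higher range. Their difference was -0.09 ± 0.17 (SE; adjusted p = 0.977 by edgeR), and edgeR called 0 of 252 miRNAs for such a difference, with 10 at an unadjusted p under 0.05. Among normal steers alone, miR-26a was at -0.15 ± 0.06 (SE) in the higher minus the lower number range (p = 0.0143, adjusted p = 0.261 by edgeR).

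**Figure D2:**
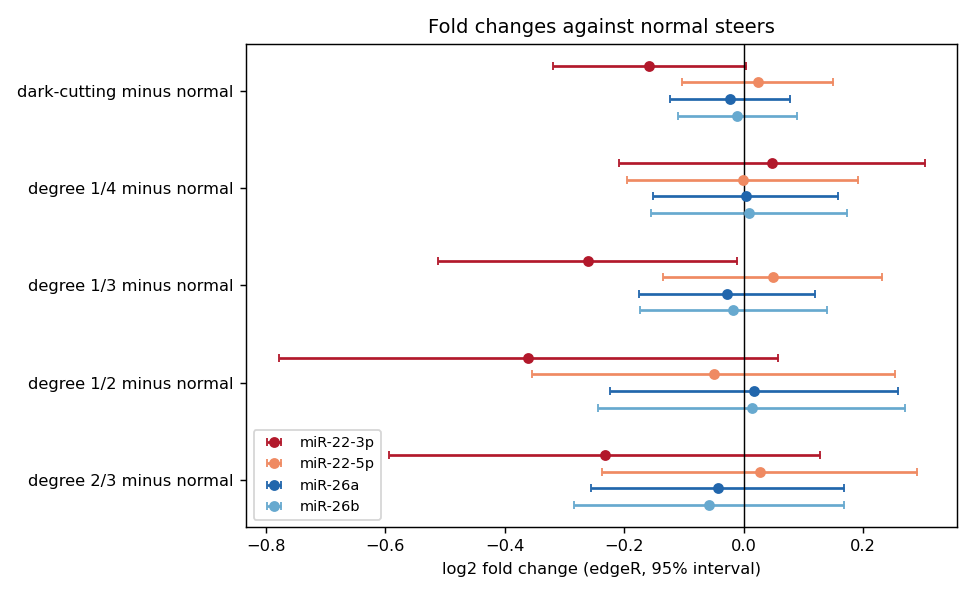
Log2 fold changes against the 53 normal steers (horizontal axis) for each miRNA, in all dark-cutting steers and at each degree with at least 3 steers; points are edgeR estimates and lines their 95% intervals. Only the interval of miR-22-3p at degree 1/3 leaves out 0 (-0.51 to -0.01), before adjustment for 272 tests.

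Across the degrees, miR-22-3p was the member with the largest estimates, and none passed. At degree 1/4 its minimum, median and maximum were 12.74, 13.57 and 13.77 log2 CPM (n = 8), a log2 fold change of 0.05 ± 0.13 (SE) against normal steers. At degree 1/3 they were 12.75, 13.06 and 13.71 log2 CPM (n = 9), with 7 of 9 steers below the normal median and a log2 fold change of -0.26 ± 0.13 (SE; adjusted p = 0.485 by edgeR). With total count scaling the values were 0.08 ± 0.16 at 1/4 and -0.11 ± 0.15 at 1/3. The point estimates of these 2 milder degrees differed in sign, that of 1/4 being within its error of 0, and their direct difference, 1/3 minus 1/4, was -0.31 ± 0.17 (SE; adjusted p = 0.995 by edgeR).

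The 3 steers of degree 1/2 had 13.12, 13.22 and 12.78 log2 CPM of miR-22-3p. All were below the normal median, at a log2 fold change of -0.36 ± 0.21 (SE; adjusted p = 0.994 by edgeR), or -0.18 ± 0.26 with total count scaling. The 4 steers of degree 2/3 had 12.98, 13.47, 12.72 and 13.42 log2 CPM, a pair on each side of the normal median, and a log2 fold change of -0.23 ± 0.18 (SE; adjusted p = 0.988 by edgeR). That value rested on single animals, with a range of -0.34 to -0.04 when each of the 4 was left out. At degree 2/3 the median log2 fold change of all 272 miRNAs was itself -0.067, with 90 of them above 0. With total count scaling that median was -0.0031.

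The other members stayed near 0 at every degree, with log2 fold changes between -0.06 and 0.05. In the 3 steers of degree 1/2, miR-22-5p was 8.61, 8.39 and 8.18, miR-26a 13.66, 13.20 and 13.06, and miR-26b 11.13, 10.94 and 10.55 log2 CPM. The same steer was highest and the same steer lowest for all 3 of these miRNAs. In the 4 steers of degree 2/3, miR-22-5p was 8.53, 8.25, 8.70 and 8.39, miR-26a 13.43, 13.22, 13.45 and 12.92, and miR-26b 10.96, 10.86, 10.80 and 10.64 log2 CPM. Here the steers high in miR-22-5p, replicates 1 and 3, were the low ones in miR-22-3p. The background was 0% called at 1/4, 1/3 and 1/2 and 0.368% at 2/3, where the call was miR-1260b, lost without replicate 1 or replicate 4. Before adjustment, edgeR gave 3, 25, 13 and 7 of the 272 miRNAs a p under 0.05 at these degrees, miR-22-3p at 1/3 among them. In the 6 contrasts between degrees 1/4, 1/3, 1/2 and 2/3, no member passed edgeR's test, and the smallest unadjusted p of miR-22-3p was 0.0665, for 1/3 minus 1/4.

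The single steer of degree 3/4 was described and not tested. It had 13.15 log2 CPM of miR-22-3p, 8.59 of miR-22-5p, 13.01 of miR-26a and 10.84 of miR-26b. The value farthest from the normal mean was that of miR-26a, 1.56 normal SD below it (-1.56 SD), and 2 of the 53 normal steers were lower still.

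As a trend over all 78 steers, with normal taken as 0, the slope of miR-22-3p was -0.44 ± 0.19 (SE) log2 units per unit of degree (p = 0.0212, adjusted p = 0.32 by edgeR), at rank 18 of 272 by p. With total count scaling it was -0.22 ± 0.23 (SE; adjusted p = 0.676 by edgeR). Slopes were 0.06 ± 0.14 for miR-22-5p, -0.09 ± 0.11 for miR-26a and -0.05 ± 0.12 for miR-26b. The background was 0.368% called, again miR-1260b, and edgeR gave 30 of the 272 miRNAs an unadjusted p under 0.05. Of those 30, 23 had slopes below 0 and 7 above, and the median slope of all 272 was -0.040. Within the 25 dark-cutting steers alone, where 0% of 251 miRNAs were called and 9 had an unadjusted p under 0.05, the slope of miR-22-3p was -0.63 ± 0.37 (SE; adjusted p = 0.998 by edgeR). The other 3 slopes there were 0.02 ± 0.31 for miR-22-5p, -0.24 ± 0.29 for miR-26a and -0.16 ± 0.26 for miR-26b. Without the single steer of degree 3/4 these were 0.080, 0.020 and -0.040, so the slopes of miR-26a and miR-26b depended on including it. That refit also reset the filter and the TMM factors, and the median slope of all miRNAs moved from -0.101 to -0.045. How much of the change came from the miR-26 levels of that steer was not tested. The 95% interval of the miR-22-3p slope within dark-cutting steers was -1.38 to 0.12, so a graded difference of that size could not be told from none with these animals.

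A ratio of 2 miRNAs in the same library does not depend on how libraries are scaled. The miR-22 arms stood at a median of 24.4 copies of the 3p arm per copy of the 5p arm in dark-cutting steers and 32.2 in normal steers, as read counts. Over all steers the ratio ran from 13.58 to 57.97. By degree the median ratio was 39.9 at 1/4, 21.2 at 1/3, 24.3 at 1/2, 26.7 at 2/3 and 23.6 in the steer of 3/4. On the log2 scale the mean was 4.76 ± 0.51 in dark-cutting steers and 4.94 ± 0.50 in normal steers (SD, n = 25 and 53). The difference of -0.18 ± 0.12 (SE) did not pass a two-sided permutation test of 100000 resamples (p = 0.141, adjusted over 3 ratios p = 0.32), with 16 of 25 dark-cutting steers below the normal median.

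The 2 miR-26 miRNAs kept a tighter ratio, with a median of 5.12 miR-26a reads per miR-26b read in dark-cutting steers and 5.45 in normal steers, and a range of 3.90 to 7.47 over all. Their log2 ratio differed by -0.02 ± 0.05 (SE; permutation p = 0.720, adjusted p = 0.720). The log2 ratio of miR-22-3p to miR-26a was -0.06 ± 0.41 in dark-cutting steers and 0.07 ± 0.44 in normal steers (SD, n = 25 and 53), a difference of -0.13 ± 0.10 (SE; permutation p = 0.213, adjusted p = 0.32). In steers numbered below 600 the 3 differences were -0.07, -0.06 and 0.0039, with exact permutation p of 0.776, 0.527 and 0.974. At or above 600 they were -0.24, 0.0047 and -0.20, with permutation p of 0.0864, 0.933 and 0.105.

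**Figure D3:**
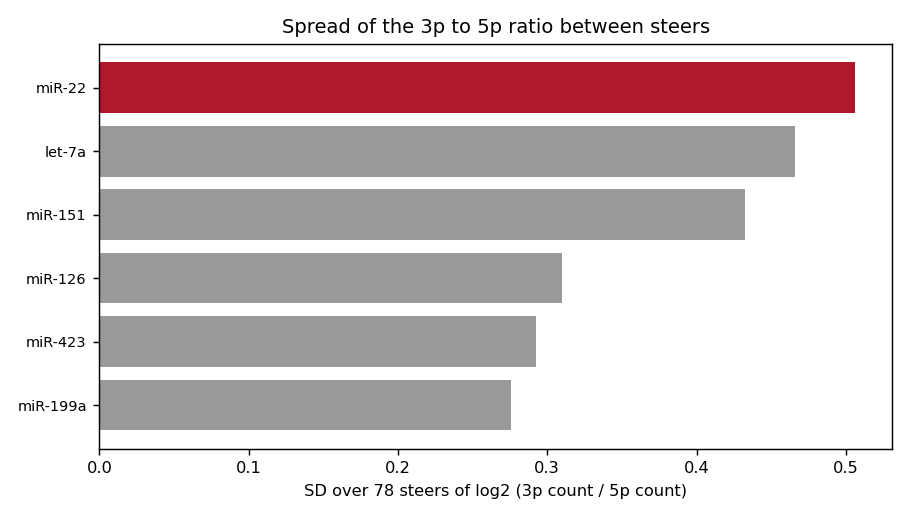
SD over 78 steers of the log2 ratio of the 3p count to the 5p count (horizontal axis, bars from 0) for the 6 miRNAs whose rarer arm had at least 100 counts on average. The bar of miR-22, in red, is the longest at 0.506, above let-7a at 0.466, and miR-199a is the shortest at 0.276.

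The ratio of the miR-22 arms varied widely between steers. Of the 20 miRNAs with both arms past the low-count filter, 6 had at least 100 counts of the rarer arm on average. Among these 6 the SD of the log2 ratio was highest for miR-22, at 0.506, with 0.466 for let-7a, 0.433 for miR-151, 0.310 for miR-126, 0.292 for miR-423 and 0.276 for miR-199a. Over all 20, most with rarer arms of fewer counts, miR-22 had rank 8 from the lowest. This is a description of how the rows vary, with no test.

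For miR-26a and miR-26b, from separate genes, the SD of the log2 ratio was 0.196. Of 271 other miRNAs, miR-26a was the one that kept the steadiest ratio to miR-26b, and miR-26b came next after miR-191 for miR-26a (0.174). For miR-22-3p the steadiest ratios were with miR-16a (0.251), miR-16b (0.268) and miR-15a (0.292), miRNAs of a family known for restraining the cell cycle. For miR-22-5p they were with miR-10b (0.220), of a HOX cluster, and with miR-378 (0.221) and miR-378c (0.237), of a family tied to oxidative metabolism. The arms of miR-22 came only at place 91 for each other seen from miR-22-3p and at place 118 seen from miR-22-5p.

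**Figure D4:**
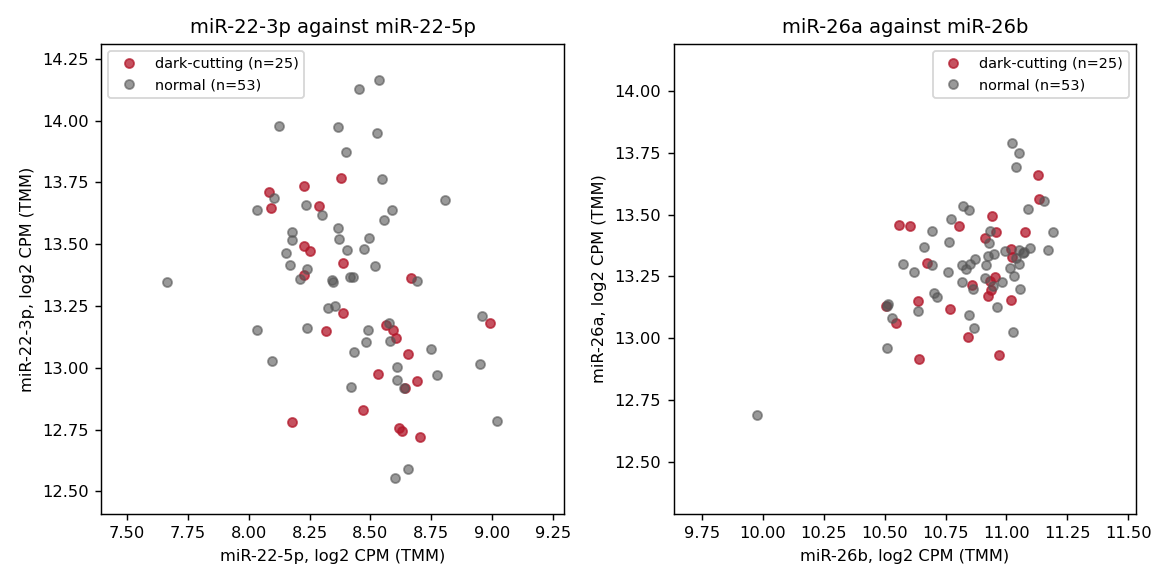
Log2 CPM (TMM) of miR-22-3p against miR-22-5p (left) and of miR-26a against miR-26b (right), 1 point per steer, with 25 dark-cutting steers in red and 53 normal steers in grey; the axes do not start at 0. The arms of miR-22 run in opposite directions on this scale (rho -0.47) and the miR-26 pair runs together (rho 0.43), with 1 normal steer low in both.

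Across the 78 steers, 10 relations were computed, 6 between members and 4 with the share of miR-1. For miR-22-3p with miR-22-5p, Pearson's r was -0.39 (permutation p = 0.00046, adjusted p = 0.00153) and Spearman's rho was -0.47 (p = 1e-05, the smallest the resamples can give, adjusted p = 5e-05) with TMM scaling, but rho was 0.13 (p = 0.254) with scaling by total count. Without the 2 steers farthest from the median of miR-22-3p, r was -0.42. By group, TMM rho was -0.61 in dark-cutting steers and -0.35 in normal steers. By animal number it was -0.62 below 600 and -0.26 (permutation p = 0.0596) at or above 600. The sign of this relation thus depended on the scaling.

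For miR-26a with miR-26b, r was 0.52 (permutation p = 1e-05, adjusted p = 0.0001) and rho was 0.43 (permutation p = 0.0001, adjusted p = 0.000333) with TMM scaling, and rho was 0.87 with scaling by total count. Without the 2 steers farthest from the median of miR-26a, r was 0.41. TMM rho was 0.39 in dark-cutting steers (permutation p = 0.0578) and 0.46 in normal steers (permutation p = 0.00074). It was 0.16 (permutation p = 0.432) in steers numbered below 600 and 0.56 at or above 600, so the relation was not seen within the lower range on this scale.

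Between the families, TMM r was 0.28 (permutation p = 0.0119, adjusted p = 0.0198) and rho 0.38 (permutation p = 0.00083, adjusted p = 0.00208) for miR-22-3p with miR-26b. For miR-22-5p with miR-26b they were -0.33 (permutation p = 0.00313, adjusted p = 0.00782) and -0.37 (permutation p = 0.00114, adjusted p = 0.00228), but rho was 0.49 with scaling by total count. Without the 2 farthest steers these r were 0.25 and -0.30. Within animal numbers below 600 rho was 0.53 for miR-22-3p and -0.54 for miR-22-5p with miR-26b, and at or above 600 it was 0.28 and -0.28. Within dark-cutting steers the values were 0.37 and -0.17, and within normal steers 0.38 and -0.44. For miR-26a, rho was -0.11 with miR-22-3p (r = -0.16) and 0.23 with miR-22-5p (r = 0.22), and neither rho passed after adjustment (adjusted p = 0.400 and 0.057 by permutation) with TMM scaling. With scaling by total count both passed, at a rho of 0.42 with miR-22-3p (adjusted p = 0.000162 by permutation), where the sign turned, and 0.65 with miR-22-5p (adjusted p = 1.43e-05 by permutation). So the arms of miR-22 had opposite signs with miR-26b on the TMM scale only.

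The share of miR-1, which ran from 72.3% to 88.6% of a library, moved with some of these levels. Its TMM rho was -0.62 with miR-26b (permutation p = 1e-05, adjusted p = 5e-05; r = -0.48, and -0.51 without the 2 farthest steers). That rho was -0.66 below 600 and -0.57 at or above 600. With miR-22-3p it was -0.30 (r = -0.24) and with miR-22-5p 0.32 (r = 0.31), with adjusted p = 0.00977 and 0.00767 by permutation, and with miR-26a it was -0.03 (r = -0.12, adjusted p = 0.795 for rho). Within normal steers rho was -0.43 for miR-22-3p (permutation p = 0.00152) and 0.44 for miR-22-5p (permutation p = 0.00121). Neither relation was seen within dark-cutting steers, at rho of -0.17 for miR-22-3p (permutation p = 0.418) and -0.025 for miR-22-5p (permutation p = 0.905). At or above 600 rho was -0.17 for miR-22-3p (permutation p = 0.227) and 0.26 for miR-22-5p (permutation p = 0.0647). There r for miR-22-5p was 0.32 (permutation p = 0.0225, adjusted p = 0.075). Below 600 rho was -0.50 for miR-22-3p (permutation p = 0.0098) and 0.27 for miR-22-5p (permutation p = 0.179). For miR-22-5p the size was thus similar in both number ranges, each with fewer steers than the whole. The levels are parts of the same library as miR-1 and so are not independent of its share, and with scaling by total count rho was below 0 for all 4. The part of the miR-1 share in the levels of miR-22 and miR-26b was not tested.

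Single normal steers marked the ends of the ranges. Normal replicate 42 was the lowest of all steers in both miR-26a (12.69 log2 CPM) and miR-26b (9.98), and its miR-22-3p was 14.13 log2 CPM, near the top. Normal replicate 9 was the highest in miR-22-3p (14.17) and in miR-26b (11.19), and normal replicate 10 the lowest in miR-22-3p (12.55). Both extremes of miR-22-3p thus came from the normal group.

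For 3 of the members, miR-22-3p, miR-26a and miR-26b, the miRNAs with the most similar TMM levels were named by Spearman's rho over 78 steers, as a description. For miR-22-3p they were miR-6119-5p (0.769), miR-16a (0.765) and miR-208b (0.741), the last being encoded in an intron of the slow myosin gene MYH7. For miR-26a they were miR-191 (0.518), miR-378 (0.452) and miR-93 (0.443), with miR-26b in place 4 (0.427). For miR-26b they were miR-15a (0.544), miR-181a (0.544) and miR-29c (0.517). Scaling by total count put others first, namely miR-15a, miR-497 and miR-29c for miR-22-3p, and made miR-26a and miR-26b the closest to each other.

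In dark-cutting against normal steers, the log2 fold changes of the miRNAs most like miR-22-3p were -0.16 ± 0.11 (SE) for miR-6119-5p, -0.17 ± 0.08 for miR-16a and -0.33 ± 0.17 for miR-208b, beside -0.16 ± 0.08 for miR-22-3p itself. None of them passed edgeR's test (adjusted p = 0.597, 0.416 and 0.416). They were chosen for following miR-22-3p over the same steers, so their shared sign is largely set by that choice and supports nothing.

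Other miRNAs known from mouse or human work to act in myoblast differentiation formed a list of 33, of which 32 were found by name and 30 were tested. Of these 30, 0 passed edgeR's test in either direction in dark-cutting against normal steers, against the background of 0%, and 2 had an unadjusted p under 0.05 (miR-206 at 0.16 ± 0.06 and miR-148a at -0.23 ± 0.07, SE), beside 23 of all 252. Of the 30, 13 had log2 fold changes above 0 and 17 below, beside 116 of all 252 above 0. Their median was -0.03, against -0.0091 for all 252 miRNAs. The 4 most abundant were miR-1 at -0.13 ± 0.08 (SE), miR-143 at -0.23 ± 0.12, miR-133a at -0.02 ± 0.09 and miR-499 at -0.11 ± 0.09, each with an adjusted p of 0.416 or more by edgeR.

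Marker lists of muscle and of other cells were summed in each library. The share of 6 skeletal muscle markers had a minimum, median and maximum of 83.6%, 86.8% and 90.0% in dark-cutting steers and 76.2%, 87.4% and 90.2% in normal steers. For miR-143 with miR-145, markers of smooth muscle and pericytes, these were 1.43%, 2.23% and 4.73% in dark-cutting steers and 1.28%, 2.51% and 6.36% in normal steers. The muscle and smooth muscle sums overlapped between the groups. Each sum was mostly 1 miRNA. Over all steers miR-1 held a mean of 84.1% of counts, and miR-143 averaged 24980 CPM against 233 for miR-145. With TMM scaling, 2 of the 6 muscle markers had log2 fold changes above 0 and 4 below. Those of miR-143 and miR-145 were -0.23 ± 0.12 and 0.07 ± 0.10 (SE).

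The 2 endothelial markers had 0.323%, 0.541% and 0.819% in dark-cutting steers and 0.343%, 0.510% and 1.11% in normal steers. With TMM scaling both had log2 fold changes below 0 (median -0.08). The 4 fibroblast markers had 0.228%, 0.407% and 0.517% in dark-cutting steers and 0.274%, 0.360% and 1.13% in normal steers, while with TMM scaling all 4 had log2 fold changes below 0 (median -0.13). By their medians, the sums and the scaled values of both lists thus pointed in different directions, as did those of the red blood cell list below. Those of the muscle, smooth muscle and white blood cell lists did not. With total count scaling the median log2 fold change of all miRNAs was 0.10, against -0.0091 with TMM.

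The 3 red blood cell markers had 0.0426%, 0.0706% and 0.131% in dark-cutting steers and 0.0325%, 0.0666% and 0.326% in normal steers. Within that list the log2 fold change was -0.86 ± 0.27 (SE) for miR-144, -0.52 ± 0.25 for miR-451 and 0.08 ± 0.09 for miR-486, with adjusted p = 0.182, 0.416 and 0.791 by edgeR. The 5 white blood cell markers had 0.00428%, 0.00716% and 0.0148% in dark-cutting steers and 0.00387%, 0.00861% and 0.0207% in normal steers, and all 5 had log2 fold changes below 0 (median -0.15). No marker of these lists passed edgeR's test, the same as the background of 0 calls among all 252 miRNAs. The median log2 fold change of all 252 was -0.0091, with 116 above 0.

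The liver and nerve lists were near 0, at medians of 0.0048% and 0.00072% in dark-cutting steers and 0.0042% and 0.00061% in normal steers, and miR-205 of skin epithelium had no counts. The part of these cell types in the levels of miR-22 and miR-26 was not tested.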

How the data were processed

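The deposited matrix gives whole-number counts of reads for each mature bovine miRNA in each steer, without normalization, as its values show. Per the labels' protocols, RNA was extracted with TRI reagent and libraries were made with a NEXTflex kit. Trimmomatic 0.32, FastQC and DESeq2 1.34.0 are listed in the submitters' processing notes. The aligner, counting tool, genome build and any collapsing of repeated reads were not given in the sources used here.

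A second deposited table holds the authors' mean normalized signal, log2 fold change, Wald score and p-value of each miRNA. Refitting dark-cutting against normal steers with DESeq2 1.42.0 on rows of at least 10 counts came within 7.55e-08 of its Wald scores, which settled its contrast.

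Tests used edgeR 4.0.16 in R 4.3.3 (glmQLFit with robust dispersion, TMM factors), with Benjamini-Hochberg adjustment over all miRNAs and a threshold of 0.05. Alternatives used DESeq2 and limma 3.58.1. The low-count filter for the phenotypes was filterByExpr with a minimum count of 10. For degrees and trends a miRNA had to reach 10 counts, scaled by library size, in 8 libraries or more, and a total of 15. Log2 CPM used a prior count of 2 and ratios a pseudocount of 0.5. Degrees shared a single fit, so all are set against the same normal steers.

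Named miRNAs were the 4 members, miR-1, any other row of the miR-22 or miR-26 names, the 3 most alike by Spearman's rho to miR-22-3p, miR-26a and miR-26b, the 4 most abundant of the differentiation list, and calls. Those named for steady ratios, arm pairs and markers, single steers, miR-206 and miR-148a were chosen after their values were seen. The members and lists were chosen with earlier results of these data known. The p-values measure the spread between steers. The tests were also run on simulated counts, drawn separately for each miRNA and with no change set for miR-1. Those runs therefore cannot speak to shifts in the miR-1 share or to correlations between miRNAs. Sequences and genome positions of the miRNAs are not reported here.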

Additional observations from a re-analysis of the deposited data

Results flagged for a closer look

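In the log2 ratio of miR-22-3p to miR-26a, the steer degree 1/3 replicate 6 stood apart from the 8 others of its degree. Its value was 0.779, against -0.0085 in the nearest and -0.70 in the lowest of the 9 steers, and that gap was 0.531 of the whole range. It also had the highest miR-22-3p of its degree, at 13.71 log2 CPM, and the lowest miR-26a, at 12.93 log2 CPM. Ratios and levels of the members were examined in this way in 21 groups of 4 to 10 steers, and chance flags about 1 in 20 groups.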

How the results depend on the processing

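Alternative fits, other than those leaving out single steers, gave 180 results, each for a single member in a single fit. None of these passed: 151 kept the sign, 29 changed it, and the lowest adjusted p was 0.287. The sign changes were in miR-22-5p, miR-26a and miR-26b, while miR-22-3p had none, though total count scaling took its log2 fold change in dark-cutting steers to -0.063 and at degree 1/3 to -0.11. Total count scaling moved the median log2 fold change of all miRNAs in dark-cutting against normal steers to 0.10, against -0.0091 with TMM, which by construction shifts every value. With it the log2 fold change of miR-26a was 0.082 for dark-cutting, 0.11 for degree 1/3 and 0.034 for degree 2/3, and its slope over all steers was 0.15. That of miR-26b was 0.087, 0.13, 0.0023 and 0.18, with a slope of 0.021 within dark-cutting steers, and that of miR-22-5p was 0.093 for degree 1/4 and 0.14 for degree 1/2. With DESeq2 size factors in edgeR, values were 0.010 for miR-22-5p at degree 1/4, -0.0081 for miR-26a and -0.0089 for miR-26b at degree 1/2, and 0.015 for miR-26a at degree 2/3. With DESeq2 itself they were 0.011, -0.0081, -0.0089 and 0.015. With no low-count filter, miR-26b was 0.0035 for dark-cutting, -4.7e-05 for degree 1/2, and 0.022 for degree 2/3, with a slope of 0.0019 over all steers, miR-22-5p was 0.023 at degree 1/4 and miR-26a 0.040 at degree 2/3. For dark-cutting against normal, miR-26b was 0.0033 with counts without miR-1, 0.017 within numbers below 600 and 0.00084 at or above 600, where miR-26a was 0.015. Beyond total count scaling, the causes were not tested.

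For dark-cutting, 2 miRNAs were called with no low-count filter (miR-2284f and miR-2285cz, neither past the filter) and 0 with it. The slope over all steers had 1 call, but 3 with DESeq2 size factors, total count scaling, no low-count filter or DESeq2, and 0 with limma-voom. Log2 ratios changed sign for miR-26a to miR-26b at or above 600 (0.0047) and for miR-22-3p to miR-26a below 600 (0.0039).

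Leaving out 1 of the 78 steers at a time, the log2 fold change in dark-cutting steers ran from -0.18 to -0.12 for miR-22-3p (adjusted p 0.293 to 0.583 by edgeR), from -0.0022 to 0.047 for miR-22-5p, from -0.040 to 0.0066 for miR-26a and from -0.023 to 0.016 for miR-26b. Without single steers of degree 1/2 it ran from -0.47 to -0.24, -0.17 to 0.050, -0.18 to 0.13 and -0.12 to 0.16 for these 4. Without single steers of degree 2/3 it ran from -0.34 to -0.043, 0.0071 to 0.095, -0.042 to 0.057 and -0.071 to 0.017, and the calls from 0 to 1, since miR-1260b was lost without replicate 1 or 4. Without the steer of degree 3/4 the slopes over all steers were -0.46, 0.033, -0.043 and -0.046, and within dark-cutting steers -0.56, 0.080, 0.020 and -0.040.

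Spearman's rho with total count scaling was 0.13 between the miR-22 arms, 0.42 for miR-22-3p with miR-26a, 0.65 for miR-22-5p with miR-26a, 0.49 for miR-22-5p with miR-26b, and -0.38 and -0.69 for the miR-1 share with miR-22-5p and miR-26a. Within dark-cutting steers it was 0.37 for miR-22-3p and -0.17 for miR-22-5p with miR-26b, 0.39 for the miR-26 pair, and -0.17, -0.025 and -0.48 for the miR-1 share with miR-22-3p, miR-22-5p and miR-26b. Within normal steers the miR-1 share had 0.029 with miR-26a. Below 600 it was 0.16 for the miR-26 pair and 0.27 for the miR-1 share with miR-22-5p. At or above 600 it was -0.26 between the miR-22 arms, 0.042 for miR-22-3p with miR-26a, 0.28 and -0.28 for miR-22-3p and miR-22-5p with miR-26b, and -0.17 and 0.26 for the miR-1 share with miR-22-3p and miR-22-5p. SDs in normal steers under total count scaling were 0.463, 0.319, 0.361 and 0.424 for miR-22-3p, miR-22-5p, miR-26a and miR-26b.

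The interaction with animal number, the contrasts between degrees and the SDs of ratios were added after seeing the data. No paired analysis was possible because replicate numbers were given in accession order and the labels tie no dark-cutting steer to a normal one. Counts were lowest for miR-22-5p, with as few as 477 reads in a library. Its SE in dark-cutting against normal steers, 0.064, was still below the 0.082 of the more abundant miR-22-3p. The degrees of 1/2 and 2/3, with 3 and 4 steers, have the widest intervals.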
